A study of Mus musculus with 34 samples.

Results

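The nuclear genes of oxidative phosphorylation encode most subunits of the 5 complexes of the mitochondrial inner membrane that turn the oxidation of nutrients into ATP. Complex I (the Nduf genes) takes electrons from NADH, complex II (the Sdh genes) from succinate, complex III (the Uqcr genes) passes them to cytochrome c, complex IV (the Cox genes) hands them to oxygen, and complex V (the Atp5 genes) is the ATP synthase driven by the proton gradient that complexes I, III and IV build. A small number of core subunits are encoded by mitochondrial DNA instead, so that each working enzyme other than complex II is built from products of both genomes, with the help of assembly factors that are not part of the finished complex. Neurons depend on this pathway for much of their ATP, and several subunits come in alternative isoforms whose use differs between tissues or with oxygen supply.

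Members were chosen by gene name, as subunit or Ndufaf genes of the families Nduf (a, b, c, s, v), Sdh (a to d), Uqcr, Cox (4 to 8) and Atp5 with more than 1 RPKM (reads per kilobase of transcript, scaled to the sequencing depth) in DMSO-treated cells. Of 52661 genes in the expression table, 92 names matched, and 89 passed the level limit among 11957 genes that did. The 3 that did not pass, Cox6b2, Cox8b and Cox8c, are isoforms of testis, heart or muscle; they were listed at 0 RPKM in DMSO and reached at most 1.26 RPKM, for Cox6b2 with MK-1775. The 89 members were 38 genes of complex I, 7 complex I assembly factors (Ndufaf), 4 genes of complex II, 8 of complex III, 15 of complex IV and 17 named for complex V. The names are older than some of the known roles: Ndufa4 was later placed with complex IV, and Atp5s and Atp5sl are no subunits of the ATP synthase.

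Polyadenylated RNA of Neuro-2A (N2A) cells, a mouse neuroblastoma line, was sequenced in 34 libraries after 24 h of treatment. Cells received 0.4% DMSO alone (3 libraries), 1 of 4 histone deacetylase (HDAC) inhibitors with 2 libraries each (2.5 uM Vorinostat, 5 uM CI-994, 10 uM BRD4884 or 10 uM BRD6688), or 1 of 23 other compounds with 1 library each. The study had picked the compounds from a reporter screen as 17 activators and 10 inhibitors of microexon splicing. Besides the HDAC inhibitors, the compounds described singly here are the activators BTB13120 (625 nM), SEW06315 (2.5 uM) and A-443654 (250 nM, an AKT1 inhibitor) and the splicing inhibitor T5985871 (6.7 uM); the targets of BTB13120, SEW06315 and T5985871 are given as unknown. All cells were of 1 line, and the libraries of a condition were called biological replicates by the study.

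Expression was available as 1 merged RPKM value per condition, with no spread, and these ratios are given as a description. A measure per library came from reads that span the exon-exon junctions of annotated introns, summed per gene and divided by the library's total over all genes (junction RPM, reads for every 1000000 junction reads). This total ran from 17.7 to 40.6 M reads per library, with a median of 26.3 M. Of the neuroblastoma and neuronal markers 9 of 10 were above 1 RPKM in DMSO, while the 5 fibroblast, 5 muscle and 5 immune markers were each at or below it; of the 5 glial markers 2 were above it and 2 at 0, and they summed to 3.5 RPKM. In RNA of whole cultures, fewer cells of a type and less RNA per cell cannot be told apart.

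The members were among the more abundant mRNAs of N2A cells. Their median in DMSO was 154.1 RPKM, at percentile 93.3 of the genes above 1 RPKM, and 60 of 89 exceeded 100 RPKM. Levels ran from 1.46 RPKM for Ndufa4l2, an isoform of Ndufa4 known to be induced by low oxygen, to 6599.91 RPKM for Atp5b, the catalytic beta subunit of the ATP synthase. Their mRNAs were short, with a median length of 908 nt against 2868 nt for all genes above 1 RPKM.

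Against DMSO, members were lower in RPKM than the middle of all genes with the HDAC inhibitors CI-994 and BRD6688 and with BTB13120. With CI-994 the median log2 ratio over the members was -1.38, against -0.42 over all genes; 77 of 89 members were lower by more than 1.5-fold and 2 higher, where 42.3% of all genes were lower and 13.9% higher. BRD6688 gave a median of -0.95 against -0.17, with 69 lower and 3 higher, beside 23.5% and 11.5% of all genes. BTB13120 gave -0.82 against -0.11, with 64 lower and 1 higher, beside 15.2% and 8.05%. In these 3 conditions the members thus stood below the middle of the transcriptome, by differences in median of -0.96, -0.78 and -0.71 on the log2 scale.

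Vorinostat stood between: the member median was -0.66 against -0.36 for all genes, with 47 lower and 6 higher, beside 39.0% and 15.2% of all genes. The share of members lower, 52.8%, was closer to the background there than with CI-994, and centred on the median of all genes 21 were lower and 8 higher. Against other genes above 50 RPKM in DMSO and of like length, the Vorinostat medians differed by 0.16 up to 700 nt, 0.06 up to 1500 nt and -0.02 up to 3000 nt, so that the members did not stand apart there. BRD4884 moved them less, with a median of -0.38 against -0.24 and 15 lower and 2 higher, beside 22.9% and 10.2%, so that the share of members below the limit was under that of all genes; centred, 2 were lower and 4 higher. SEW06315 gave -0.32 against -0.14, with 14 lower and 1 higher (6.94% and 4.08% of all genes), and A-443654 gave -0.27 against -0.04, with 10 lower and 1 higher (6.68% and 4.74%). T5985871 was the exception in direction: the member median was 0.10 where that of all genes was -0.22, and 5 members were lower and 7 higher, although 26.7% of all genes were lower and 11.5% higher. Centred on the median of all genes, 3 members were lower and 22 higher with T5985871. The shares of all genes past the limit after centring were not taken, here or for Vorinostat and BRD4884. Against other genes above 50 RPKM in DMSO and of like length, the T5985871 medians differed by 0.02 up to 700 nt and 0.11 up to 1500 nt. They differed by -0.1 up to 3000 nt and by 0.22 in the 5 longer members. In the first 3 bands the members thus did not stand apart from such genes.

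Over the other 19 compounds the member medians lay between -0.31 and 0.01 and differed from those of all genes by -0.13 to 0.07, with 0 to 14 members lower and 0 to 4 higher, beside 3.25 to 21% of all genes lower and at most 9.42% higher. The share of members lower was above that of all genes in 2 of the 19 (NVP-AEW-541 and RDR00572), and the share higher in 2 (BTB12021 and 5-azacytidine). These include kinase inhibitors of the MEK, ERK, PDGF, TRK, IGF1 and WEE1 pathways and the DNA methyltransferase inhibitor 5-azacytidine.

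**Figure D1:**
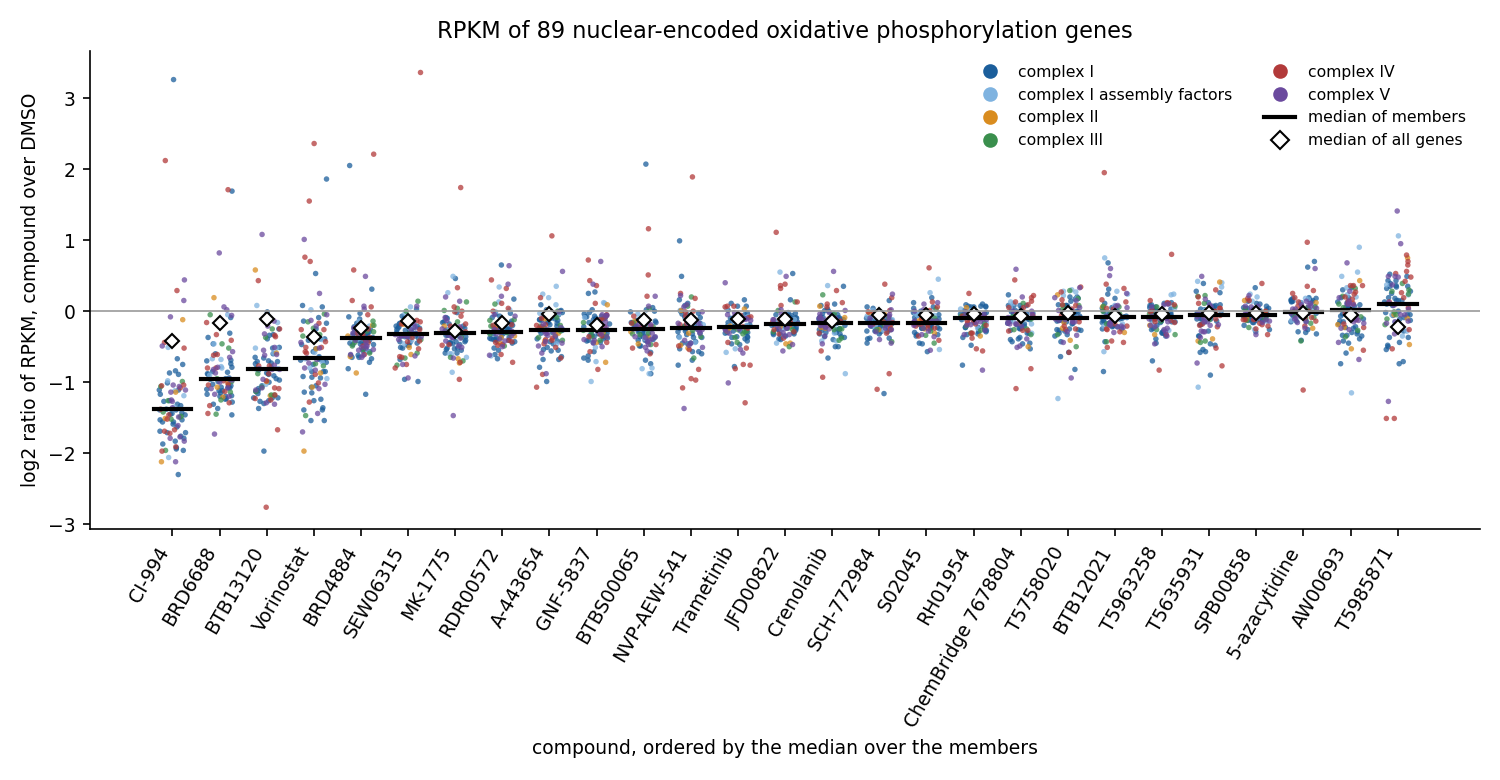
Log2 ratio of RPKM in each of 27 compounds over DMSO (vertical axis) for the 89 members, 1 point per gene coloured by complex, with compounds ordered by the member median (black bar) and the median of all genes above 1 RPKM as a diamond. The bars of CI-994 (-1.38), BRD6688 (-0.95) and BTB13120 (-0.82) lie well below their diamonds (-0.42, -0.17 and -0.11), and that of T5985871 (0.10) lies above its diamond (-0.22).

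The lower values were spread over all complexes. With CI-994 the median log2 RPKM ratio was -1.45 for complex I, -1.12 for its assembly factors, -1.32 for complex II, -1.45 for complex III, -1.38 for complex IV and -1.25 for complex V, and all 8 genes of complex III and 37 of 38 of complex I were lower by more than 1.5-fold. With BRD6688 the 6 medians ran from -1.04 (complexes I and II) to -0.68 (assembly factors), and with BTB13120 from -0.98 (complexes III and IV) to -0.52 (assembly factors). In RPKM the Ndufaf genes, which build complex I without staying in it, were thus the least lowered of the 6 groups in each of the 3 conditions. Junction reads, with 4 Ndufaf genes tested, did not give this order. With CI-994, BRD6688 and BTB13120 the Ndufaf medians were -1.03, -0.68 and -0.43 there, and those of complex III -0.68, -0.43 and -0.35. In RPKM Vorinostat was less even, with -0.97 for complex II, -0.71 for complex I and -0.34 for complex III. With T5985871 the medians ran from -0.07 (complex II) to 0.26 (complex IV).

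**Figure D2:**
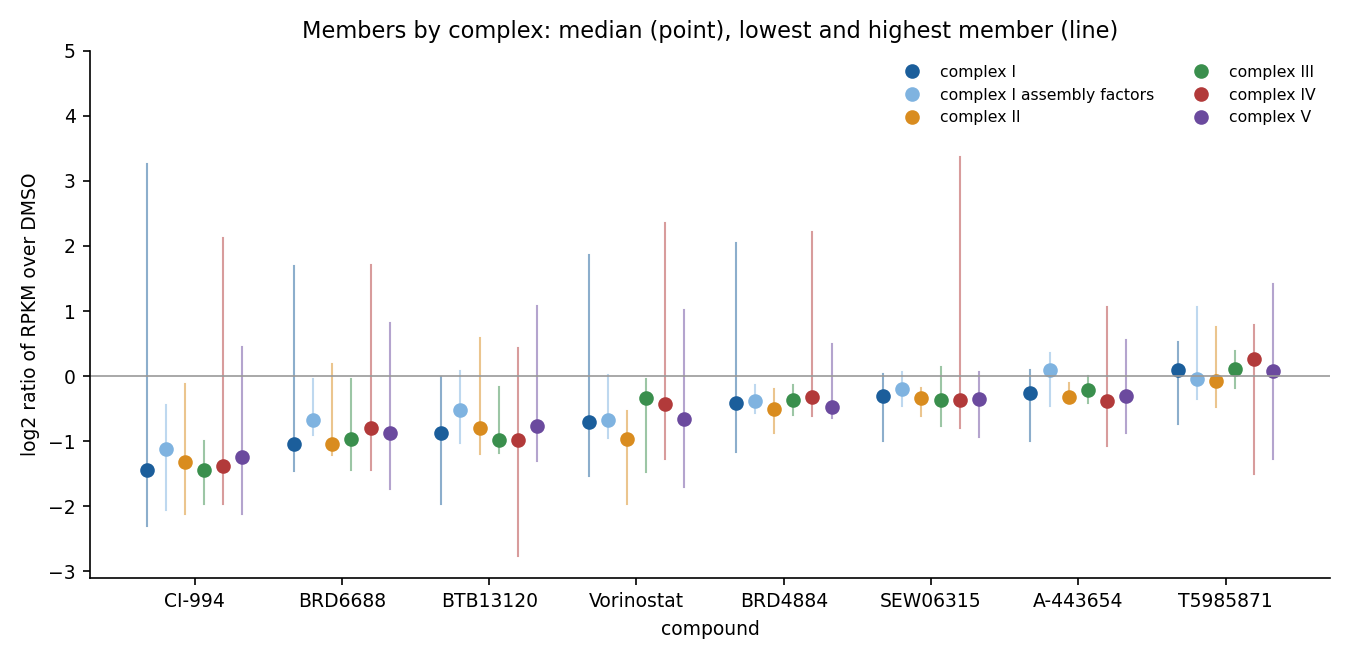
Log2 ratio of RPKM over DMSO (vertical axis) by complex for 8 compounds; a point is the median over the genes of a complex and a line joins its lowest and highest member. In CI-994 all 6 points lie between -1.45 and -1.12, while the lines reach 3.26 in complex I (Ndufa4l2) and 2.12 in complex IV (Cox4i2).

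Over all 27 compounds, the member of each complex with the lowest and the highest median log2 RPKM ratio was Ndufc1 (-0.47) and Ndufa4l2 (0.16) in complex I, Ndufaf3 (-0.25) and Ndufaf6 (0.07) among the assembly factors, and Sdhc (-0.33) and Sdha (-0.12) in complex II. They were Uqcr11 (-0.31) and Uqcr10 (-0.07) in complex III, Cox7a1 (-0.58) and Cox6a2 (0.38) in complex IV, and Atp5g1 (-0.45) and Atp5b (0.12) in complex V. Ndufa4l2, Cox7a1 and Cox6a2 are low in N2A cells, at 1.46, 2.89 and 2.08 RPKM in DMSO, so that their ratios rest on few reads.

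The junction reads test the same question per library. Introns were listed for 72 members, and 71 passed the limit on low values in a limma fit over all 34 libraries (10448 genes, Benjamini-Hochberg adjusted p below 0.05); Cox7a1 did not pass, and 17 members, among them Uqcr11, Uqcrb, Atp5g1, Atp5g2 and Cox8a, have no intron in the table. Compounds with 1 library have no replicate, and were assumed to vary like DMSO and the HDAC inhibitors. The median standard error of a log2 change was 0.17 for the HDAC inhibitors and 0.21 for single libraries.

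With CI-994, 57 of 71 members fell and 2 rose, with a median log2 change of -0.97, where 37.0% of all genes tested fell and 39.1% rose. With BRD6688, 56 fell and 3 rose, with a median of -0.74 (25.6% and 38.9% of all genes). With BTB13120, 45 fell and 0 rose, with a median of -0.72 (15.4% and 14.9%); at an unadjusted p below 0.05 limma also found 0 rising. Without 1 of the DMSO libraries A, B or C, 32, 24 or 23 members were called with BTB13120, and 18 without the filter on low genes. Vorinostat gave 27 falling and 8 rising, with a median of -0.28 (35.5% and 39.5%), close to the background among the falling. BRD4884 gave 8 falling and 7 rising, with a median of -0.07 (19.8% and 38.9%), and 23 and 4 when log2 values were centred on the library median.

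The Vorinostat libraries stand apart from each other, and were set side by side after this was seen. The median log2 change of the members against the mean of DMSO was -0.02 in library A and -0.55 in library B; A, with 17.7 M junction reads the shallowest of all libraries, had 30 of 71 members below every DMSO library and 28 above, and B had 59 below and 9 above. Without library A, 53 members fell and 6 rose. The libraries of the other HDAC inhibitors lay closer together, at -1.0 and -0.94 for CI-994, -0.76 and -0.70 for BRD6688 and -0.12 and -0.04 for BRD4884. Each DMSO library against the other 2 gave -0.06, -0.01 and 0.07. Members below both others numbered 41, 17 and 13 in DMSO A, B and C, and members above both 11, 15 and 45. Counts as high as the 30 and 28 of Vorinostat A thus also arose among DMSO libraries. The same counts over all genes were not taken.

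T5985871 gave 7 falling and 9 rising members, with a median of 0.20, where 36.0% of all genes fell and 17% rose. Centred on the library median, the split was 4 and 27. The shares of all genes after this centring were not taken, here or for BRD4884. SEW06315 gave 1 falling (Atp5sl) and 1 rising (Cox6a2), with a median of -0.21 (3.83% and 5.09%), and A-443654 1 falling (Sdha, the flavoprotein of complex II) and 1 rising (Ndufab1, the mitochondrial acyl carrier protein), with a median of -0.24 (5.44% and 5.66%). For Ndufab1 the measures went apart, since its log2 RPKM ratio with A-443654 was -0.68 while its junction reads, 1.70, 1.69 and 1.80 RPM in DMSO, were 3.32 with the compound. Neither A-443654 call remained when any 1 of the DMSO libraries was left out. Over the other 19 compounds 0 to 6 members passed the test, beside 0 to 19.8% of all genes falling and 0 to 25.6% rising, and the medians ran from -0.16 to 0.05. In none of the 19 did the share of members called exceed that of all genes in either direction. In 6 of these compounds limma called none, with 1 to 6 members at an unadjusted p below 0.05.

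Members took 1.90, 1.82 and 1.89% of all junction reads in the DMSO libraries. The share was 1.26 and 1.32% with CI-994, 1.38 and 1.45% with BRD6688, and 1.44% with BTB13120, all below the DMSO libraries. It was 1.74 and 1.36% with Vorinostat, 1.68 and 1.84% with BRD4884, 1.55% with A-443654, 1.59% with SEW06315, 2.59% with T5985871, and 1.61 to 2.02% in the 19 libraries of the compounds not described singly. The T5985871 library thus had the highest and the CI-994 libraries the lowest shares of all. Without Atp5b the share was 1.46% with T5985871 against 1.26, 1.28 and 1.32% in DMSO and 0.76 and 0.77% with CI-994.

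The genes with the largest fall came from different complexes. Promoters of 3 of them, and of Atp5b, whose RPKM and junction reads went apart, are shown because the members share regulators known to bind near their start sites. They are RefSeq sequences of GRCm38.p6, from 250 bases before to 50 after the start, printed 5′ to 3′ on the gene's own strand, with matches to the motifs listed in the next paragraph in capitals. Ndufs7 lies at chr10:80249199-80249498 (+ strand), Sdhd at chr9:50603800-50604099 (- strand), Atp5e at chr2:174464052-174464351 (- strand) and Atp5b at chr10:128083057-128083356 (+ strand).
Ndufs7: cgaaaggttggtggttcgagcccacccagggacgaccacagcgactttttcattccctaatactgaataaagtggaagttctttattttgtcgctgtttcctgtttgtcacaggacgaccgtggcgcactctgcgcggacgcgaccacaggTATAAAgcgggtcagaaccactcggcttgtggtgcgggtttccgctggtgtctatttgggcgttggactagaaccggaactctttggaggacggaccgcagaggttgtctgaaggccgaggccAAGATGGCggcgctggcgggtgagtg
Sdhd: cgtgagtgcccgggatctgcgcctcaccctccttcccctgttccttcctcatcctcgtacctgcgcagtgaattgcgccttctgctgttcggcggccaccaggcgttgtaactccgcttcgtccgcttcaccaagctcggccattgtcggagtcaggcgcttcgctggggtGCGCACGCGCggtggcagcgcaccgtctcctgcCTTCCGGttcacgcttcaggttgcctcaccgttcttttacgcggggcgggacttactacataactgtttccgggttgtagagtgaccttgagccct
Atp5e: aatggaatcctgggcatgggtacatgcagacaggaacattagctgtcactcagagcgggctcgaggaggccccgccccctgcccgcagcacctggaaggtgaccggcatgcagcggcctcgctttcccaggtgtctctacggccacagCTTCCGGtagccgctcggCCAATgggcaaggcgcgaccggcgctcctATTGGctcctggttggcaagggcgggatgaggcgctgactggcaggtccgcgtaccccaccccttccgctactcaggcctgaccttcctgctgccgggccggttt
Atp5b: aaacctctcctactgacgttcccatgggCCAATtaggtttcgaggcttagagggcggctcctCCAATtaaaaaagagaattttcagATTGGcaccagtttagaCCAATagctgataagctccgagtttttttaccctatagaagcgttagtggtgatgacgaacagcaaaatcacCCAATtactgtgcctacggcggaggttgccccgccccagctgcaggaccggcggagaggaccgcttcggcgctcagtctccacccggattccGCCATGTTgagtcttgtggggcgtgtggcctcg

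The motifs were searched on both strands. They were the core of the NRF1 motif (GCGCA, then any base, then GCGC), the core bound by ETS factors (CCGGAAG), the YY1 motif (AANATGGC), the CCAAT box (these letters themselves), the TATA box (TATAAA) and the E-box (CACGTG), and no match overlapped one of another motif in the 4 sequences. Sdhd held an NRF1 match 79 bases and an ETS match 46 bases before the start. Atp5e held an ETS match 102 bases before it and CCAAT matches at 84 and 55. Ndufs7 held a YY1 match 25 bases after the start and TATAAA 99 bases before it, and Atp5b a YY1 match 18 bases after the start and 5 CCAAT matches from 222 to 75 bases before it.

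Of the 89 members 71 were found in the promoter table. Where a gene had more than 1 start, the start with the lowest coordinate was used. This is the most upstream start on the plus strand and the most downstream on the minus strand. The NRF1 letters stood in 19 of them (26.8%), against 4.68% of all 27025 promoters and 11.7% of the 8204 promoters of genes above 1 RPKM. YY1 stood in 16 (22.5%, against 6.22% and 9.78%), ETS in 17 (23.9%, against 9.08% and 20.1%) and CCAAT in 31 (43.7%, against 37.8% and 39.5%). TATAAA stood in 6 (8.45%, against 14.1% and 6.05%) and the E-box in 5 (7.04%, against 7.09% and 10.4%). The share for ETS, CCAAT and TATAAA was thus close to that of expressed genes.

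Members with and without the NRF1 letters had medians of -1.27 and -1.47 in log2 RPKM ratio with CI-994, -0.87 and -1.03 with BRD6688, and -0.82 and -0.89 with BTB13120. Those with and without the YY1 letters had -1.53 and -1.39 with CI-994, -1.16 and -0.96 with BRD6688, and -0.92 and -0.83 with BTB13120. With CI-994 the medians with and without the letters were -1.73 and -1.39 for TATAAA and -1.11 and -1.44 for the E-box, each found in few members. For ETS they were -1.51 and -1.39 there, and for CCAAT -1.48 and -1.39. None of these splits was tested.

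Ndufs7 (GRCm38 chromosome 10, 80249121 to 80256794), an iron-sulfur subunit of complex I near the site where ubiquinone is reduced, had the largest fall with CI-994. Its RPKM was 102.09 in DMSO and 20.28 with CI-994, a log2 ratio of -2.30. In junction reads it was at 78.84, 84.24 and 76.10 RPM in DMSO and at 18.79 and 23.16 with CI-994, 32.89 and 33.68 with BRD6688, 43.23 and 45.60 with BRD4884 and 41.12 and 25.95 with Vorinostat. All 8 HDAC inhibitor libraries lay below all 3 DMSO libraries. The log2 change was -1.88 ± 0.16 (SE, n = 2 against 3, limma adjusted p = 2.8e-06) with CI-994, -1.23 ± 0.16 (adjusted p = 1.34e-04) with BRD6688, -1.26 ± 0.16 (adjusted p = 5.36e-05) with Vorinostat and -0.83 ± 0.16 (adjusted p = 0.00163) with BRD4884. With BTB13120 (54.61 RPM), T5985871 (56.18) and SEW06315 (53.34) it was below the DMSO libraries without passing the test.

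Sdhd (chromosome 9, 50596357 to 50603812), a membrane anchor of succinate dehydrogenase, was at 171.30, 182.16 and 183.08 junction RPM in DMSO. It was at 56.34 and 57.59 with CI-994, 68.69 and 43.03 with Vorinostat, 85.47 and 91.34 with BRD6688 and 131.14 and 124.03 with BRD4884, with no overlap with DMSO. Its log2 change was -1.63 ± 0.16 (limma adjusted p = 5.45e-06) with CI-994 and -1.70 ± 0.16 (adjusted p = 3.96e-06) with Vorinostat, where it had the largest fall of all members in both measures. It went the other way with T5985871, at 330.07 RPM (log2 change 0.88 ± 0.20, limma adjusted p = 0.00402), while Sdha, the catalytic subunit of the same complex, fell there by 0.51 on the log2 scale (adjusted p = 0.00103). The fall of Sdha was not seen in RPKM, at 257.41 in DMSO and 249.35 with T5985871, a log2 ratio of -0.05. Sdha did not pass the test with CI-994 (684.13, 693.20 and 710.92 RPM in DMSO, 613.42 and 637.27 with CI-994, log2 change -0.15 ± 0.07, limma adjusted p = 0.0681).

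Atp5e (chromosome 2, 174461072 to 174464105), the small epsilon subunit of the ATP synthase, had the largest RPKM fall with BRD6688, from 225.54 to 67.69. Its junction reads were 35.38, 42.17 and 42.82 RPM in DMSO, 13.06 and 15.43 with BRD6688, 12.12 and 12.20 with CI-994, and 36.19 and 35.71 with BRD4884. It fell with BRD6688 (log2 change -1.43 ± 0.30, limma adjusted p = 0.00222) and with CI-994 (-1.64 ± 0.30, adjusted p = 6.22e-04). With BRD4884 it was -0.15 ± 0.30, its libraries lying inside the DMSO range.

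The other members with the largest falls were subunits of several complexes. With CI-994 Sdhd and Atp5e shared a log2 RPKM ratio of -2.12. With Vorinostat Atp5g1, a ring subunit of the ATP synthase, had -1.70 and Ndufb8, an accessory subunit of complex I, -1.54. With BRD4884 Sdhd had -0.87 and Ndufa5, another accessory subunit, -0.81. With BRD6688 Uqcr11, a small subunit of complex III, had -1.45.

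BTB13120 had the largest falls in low genes: Cox7a1 (2.89 RPKM in DMSO) and Ndufa4l2 (1.46 RPKM) were listed at 0 RPKM. Next came Cox7b2 (chromosome 5, 71442824 to 71548205), a testis-type isoform of a complex IV subunit that was at 121.41 RPKM in N2A cells and at 37.76 with BTB13120. Its junction reads were 40.36, 40.21 and 42.12 RPM in DMSO, 13.72 with BTB13120 (log2 change -1.51 ± 0.22, limma adjusted p = 0.00255), 14.55 and 14.53 with CI-994 (-1.43 ± 0.18, adjusted p = 3.95e-05), 19.73 and 19.44 with BRD6688 (-1.02 ± 0.18, adjusted p = 7.1e-04) and 14.72 with T5985871 (-1.41 ± 0.22, adjusted p = 5.9e-04). Cox7b2 was thus lowered also where most members were not.

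**Figure D3:**
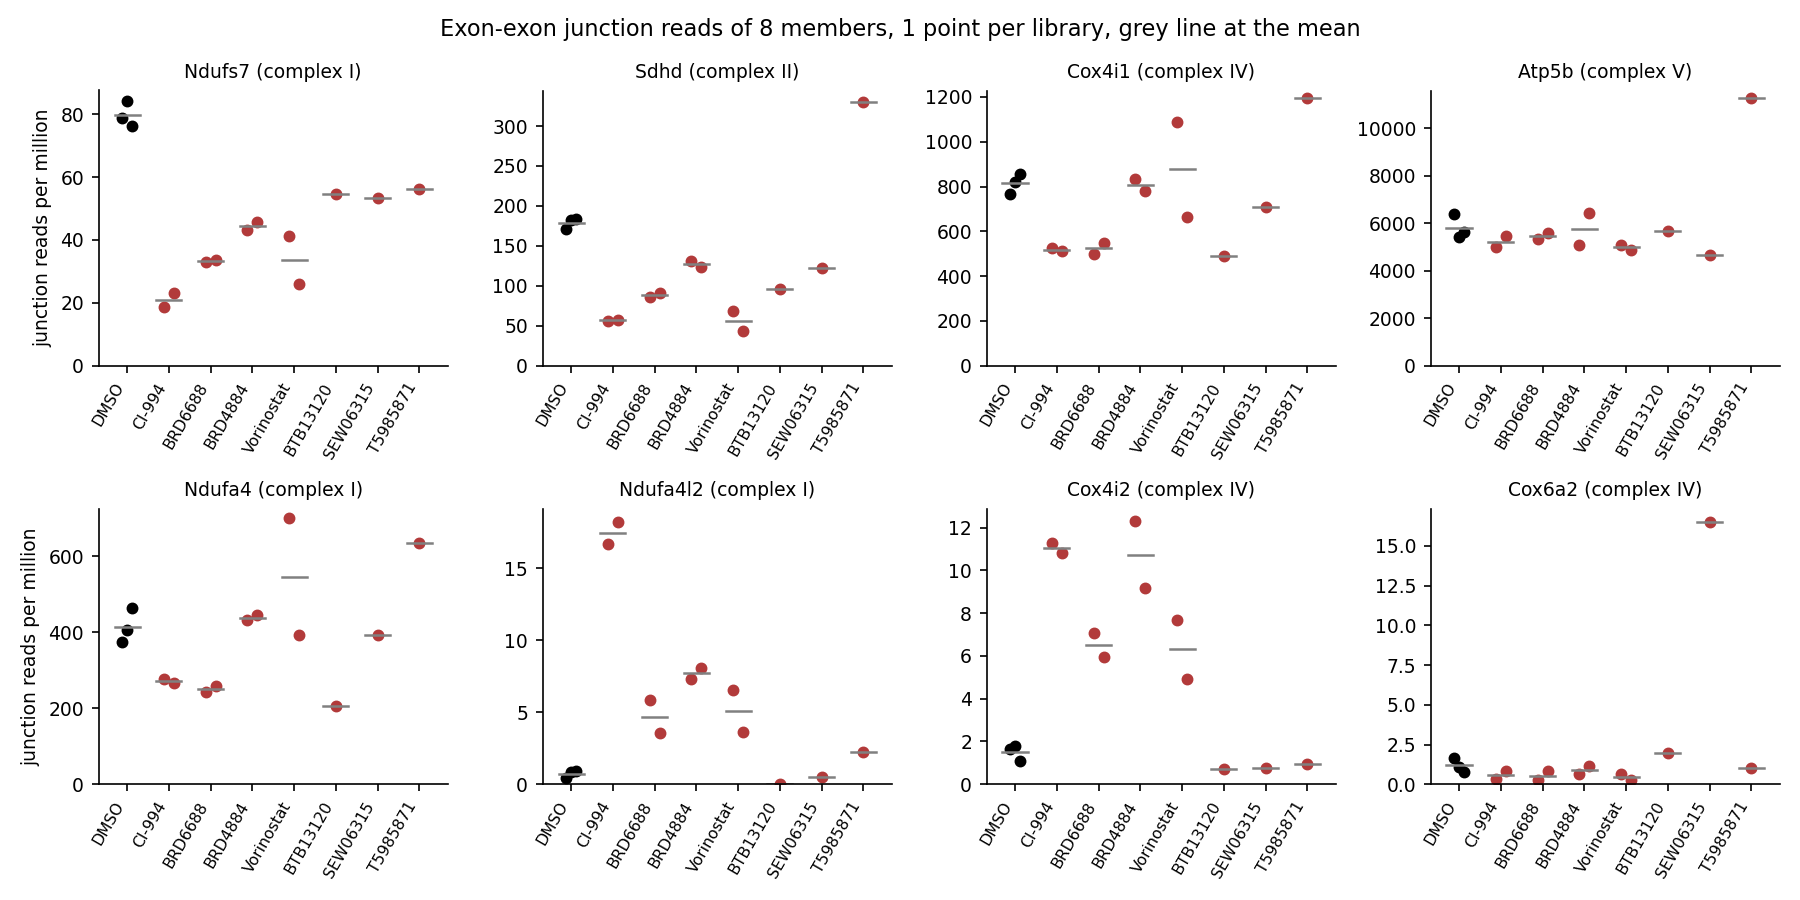
Exon-exon junction RPM (vertical axes, each from 0) of 8 members in the libraries of DMSO (black) and 7 compounds (red), 1 point per library, with the mean of a condition as a grey line. Ndufs7 is below the 3 DMSO libraries in every compound shown, Ndufa4l2 and Cox4i2 are raised in the HDAC inhibitors, and Cox6a2 is high in SEW06315 (16.51) among the compounds shown.

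Of 71 members, Ndufa4l2 and Cox4i2, both low in N2A cells, were the only 2 that rose with all 4 HDAC inhibitors. Each also rose with other compounds, Cox4i2 to 7.54 RPM with NVP-AEW-541 (log2 change 1.78 ± 0.23, limma adjusted p = 4.18e-04, 1 library) and Ndufa4l2 to 6.62 RPM with BTBS00065 (2.14 ± 0.28, adjusted p = 5.23e-04, 1 library). Ndufa4l2 also passed with NVP-AEW-541 (2.62 RPM, 1.07 ± 0.28, limma adjusted p = 0.0189) and T5985871 (2.25 RPM, 0.91 ± 0.28, adjusted p = 0.0189), each 1 library. Uqcrfs1, the Rieske iron-sulfur protein of complex III, rose with BRD6688 as well (log2 change 0.97 ± 0.32, limma adjusted p = 0.0219, against a log2 RPKM ratio of -0.05), and Ndufv3, Cox6a1, Cox7a2l, Atp5d and Atp5s rose with both BRD4884 and Vorinostat. With BRD4884 the log2 RPKM ratios of these 5 were 0.31, 0.06, 0.15, 0.07 and 0.49. Atp5d was at 241.38 and 335.59 RPM with BRD4884, the first below the 252.4 of DMSO library A. Ndufa4l2 (chromosome 10, 127514967 to 127517154) was at 0.47, 0.84 and 0.90 junction RPM in DMSO. It was at 16.67 and 18.21 with CI-994, 7.29 and 8.11 with BRD4884, 5.83 and 3.58 with BRD6688 and 6.55 and 3.66 with Vorinostat, all above DMSO. The log2 change, taken after adding 1 to each value, was 3.42 ± 0.22 with CI-994 (limma adjusted p = 3e-07), 2.33 ± 0.22 with BRD4884 (adjusted p = 1.09e-05), 1.70 ± 0.22 with BRD6688 (adjusted p = 1.13e-04) and 1.78 ± 0.22 with Vorinostat (adjusted p = 3.49e-05).

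Its paralogue Ndufa4 (chromosome 6, 11900292 to 11907497) went the other way with CI-994, from 375.22, 405.43 and 465.59 to 276.11 and 267.58 RPM (log2 change -0.60 ± 0.20, limma adjusted p = 0.0171), and with BRD6688 (-0.73 ± 0.20, adjusted p = 0.00881). Even so it stayed the major form: with CI-994 Ndufa4 was at 407.04 RPKM and Ndufa4l2 at 18.33.

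Cox4i2 (chromosome 2, 152754173 to 152765037), the lung-type isoform of subunit 4 of complex IV, was at 1.63, 1.77 and 1.10 junction RPM in DMSO, 11.30 and 10.80 with CI-994, 12.29 and 9.17 with BRD4884, 7.06 and 5.94 with BRD6688 and 7.68 and 4.94 with Vorinostat. Every HDAC inhibitor library lay above DMSO, with log2 changes of 2.28 ± 0.18 (CI-994, limma adjusted p = 1.53e-06), 2.23 ± 0.18 (BRD4884, adjusted p = 4.22e-06), 1.59 ± 0.18 (BRD6688, adjusted p = 5.4e-05) and 1.53 ± 0.18 (Vorinostat, adjusted p = 2.82e-05). The common isoform Cox4i1 (chromosome 8, 120668222 to 120674207) was at 768.46, 820.99 and 855.07 in DMSO, 525.19 and 511.68 with CI-994 and 833.55 and 779.43 with BRD4884; it fell with CI-994 (-0.65 ± 0.17, adjusted p = 0.00515) and had -0.01 ± 0.17 with BRD4884. At 481.56 RPKM with CI-994, Cox4i1 stayed far above Cox4i2 at 8.54 RPKM.

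The 5 fibroblast markers, none above 1 RPKM in DMSO, summed to 0.58 RPKM there and to 23.42 RPKM with CI-994, the highest of all conditions; their part in the rise of Ndufa4l2 and Cox4i2 was not tested.

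The remaining isoform sets behaved differently from set to set. Cox6a2, the heart and muscle isoform of subunit 6a, was at 1.65, 1.10 and 0.80 junction RPM in DMSO and at 16.51 with SEW06315 (log2 change 3.02 ± 0.28, limma adjusted p = 1.71e-04, 1 library); its RPKM went from 2.08 to 26.06. It rose as well to 6.06 RPM with BTB12021 (1.71 ± 0.28, limma adjusted p = 0.00926) and to 5.69 RPM with MK-1775 (1.63 ± 0.28, adjusted p = 0.00365), each 1 library. Smaller rises passed with BTBS00065 (3.39 RPM, 1.03 ± 0.28, limma adjusted p = 0.0227) and GNF-5837 (2.77 RPM, 0.81 ± 0.28, adjusted p = 0.0396), each 1 library. With Vorinostat Cox6a2 fell, to 0.62 and 0.27 RPM (-0.59 ± 0.22, limma adjusted p = 0.0326). The common isoform Cox6a1 was at 153.18, 131.33 and 138.46 RPM in DMSO and at 92.33 with SEW06315, which did not pass the test (-0.60 ± 0.21, adjusted p = 0.103). The 5 muscle markers summed to at most 7.22 RPKM in any condition. Cox6a1 rose with Vorinostat, at 307.02 and 247.51 RPM (0.97 ± 0.16, limma adjusted p = 3.44e-04), and with T5985871, at 275.86 (0.97 ± 0.21, adjusted p = 0.00307).

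Among the forms of subunit 7a, Cox7a2 fell with CI-994 (log2 change -1.19 ± 0.22, limma adjusted p = 7.53e-04), with BRD6688 (-0.87 ± 0.22, adjusted p = 0.00698) and with BTB13120 (-1.03 ± 0.28, adjusted p = 0.0256). Cox7a2l, which links complexes III and IV in supercomplexes, was at 68.28, 66.38 and 73.20 RPM in DMSO, 193.13 and 152.85 with Vorinostat (1.30 ± 0.10, adjusted p = 1.31e-06) and 67.56 and 73.30 with CI-994 (0.02 ± 0.10, adjusted p = 0.843). It was 39.72 with BTB13120 (-0.79 ± 0.13, limma adjusted p = 0.00394). Cox7a1, the muscle form, had log2 RPKM ratios of 2.36 with Vorinostat (16.90 RPKM) and 0.58 with BRD4884.

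Of the other sets, Cox6b1, the expressed form of subunit 6b, fell with CI-994 (-1.32 ± 0.22, limma adjusted p = 3.37e-04) and BRD6688 (-0.97 ± 0.22, adjusted p = 0.00339). Cox8a, the expressed form of subunit 8, had log2 RPKM ratios of -1.04 with CI-994, -0.89 with A-443654 and 0.79 with T5985871. The 3 genes that encode the same ring subunit of the ATP synthase, Atp5g1, Atp5g2 and Atp5g3, had -1.83, -1.25 and -1.06 with CI-994 and -1.70, -0.66 and -0.33 with Vorinostat. They make 1 mature protein, and Atp5g3 was the most abundant in DMSO, at 551.07 RPKM against 112.93 for Atp5g1 and 72.39 for Atp5g2.

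T5985871 was the library with the highest share of member reads. Atp5b was at 6393.26, 5407.21 and 5626.05 junction RPM in DMSO and at 11265.25 with T5985871 (log2 change 0.96 ± 0.14, limma adjusted p = 4.06e-04). Cox5a, Cox6c, Cox6a1 and Cox7a2l of complex IV, Uqcrc1, a core protein of complex III (0.37 ± 0.11, adjusted p = 0.0154), Sdhd, Ndufa4l2 and Atp5sl (0.90 ± 0.11, adjusted p = 1.14e-04) rose with it. Falling were Cox7b2, Atp5s (-0.78 ± 0.22, adjusted p = 0.0131), Ndufaf3, Ndufa6, Ndufb3, Sdha and Ndufs1. Of these, Ndufaf3 and Sdha each had a log2 RPKM ratio of only -0.05. In RPKM, the members with the largest ratios were Atp5b at 1.41, Ndufaf6, a complex I assembly factor, at 1.06, and Atp5sl at 0.95, and those with the lowest were Cox7a1 and Cox7b2 at -1.51 and Atp5s at -1.27. The 13 genes of these complexes encoded by mitochondrial DNA had a median log2 RPKM ratio of 0.78 in this library, with 10 of 13 higher by more than 1.5-fold, where it was -0.67 with CI-994, -0.53 with BRD6688 and -0.25 with BTB13120.

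SEW06315 and A-443654 had small ratios in most members. The lowest with SEW06315 were Ndufab1 (-0.99), Ndufa4l2 (-0.96) and Atp5b (-0.94), and besides Cox6a2 the highest were Uqcrq of complex III (0.14) and Atp5s (0.07). With A-443654 the lowest were Cox7a1 (-1.07), Ndufb2 of complex I (-0.99) and Cox8a (-0.89), and the highest Cox6a2 (1.06), Atp5s (0.56) and Ndufaf3 (0.35).

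The RPKM and junction measures share the same libraries. Across the 71 members their log2 values had a Pearson correlation, given as a description, of 0.97 with CI-994 and with Vorinostat, 0.94 with BRD6688, 0.90 with T5985871 and 0.82 with BTB13120. The junction values were shifted upward from the line of equal change. Member medians in RPKM (89 members) and junction reads (71) were -1.38 and -0.97 with CI-994, -0.66 and -0.28 with Vorinostat, and -0.38 and -0.07 with BRD4884. They were -0.95 and -0.74 with BRD6688, -0.82 and -0.72 with BTB13120, and 0.10 and 0.20 with T5985871. The medians of all genes were shifted as well, at -0.42 and 0.02 with CI-994.

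Atp5b was the clearest departure. Its RPKM was 6599.91 in DMSO, 8955.48 with CI-994, 11650.45 with BRD6688 and 13947.00 with BTB13120, log2 ratios of 0.44, 0.82 and 1.08, among the 3 highest of all members there. Its junction reads were 4998.34 and 5465.78 RPM with CI-994, 5356.98 and 5572.81 with BRD6688 and 5658.01 with BTB13120, close to or inside the DMSO range of 5407.21 to 6393.26, with log2 changes of -0.15 ± 0.11 (limma adjusted p = 0.252), -0.08 ± 0.11 (adjusted p = 0.53) and -0.03 ± 0.14 (adjusted p = 0.876). Sdha likewise had a log2 RPKM ratio of 0.58 with BTB13120 and a junction change of -0.06 ± 0.09 (limma adjusted p = 0.648). Only with T5985871, among these compounds, was Atp5b raised in both.

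**Figure D4:**
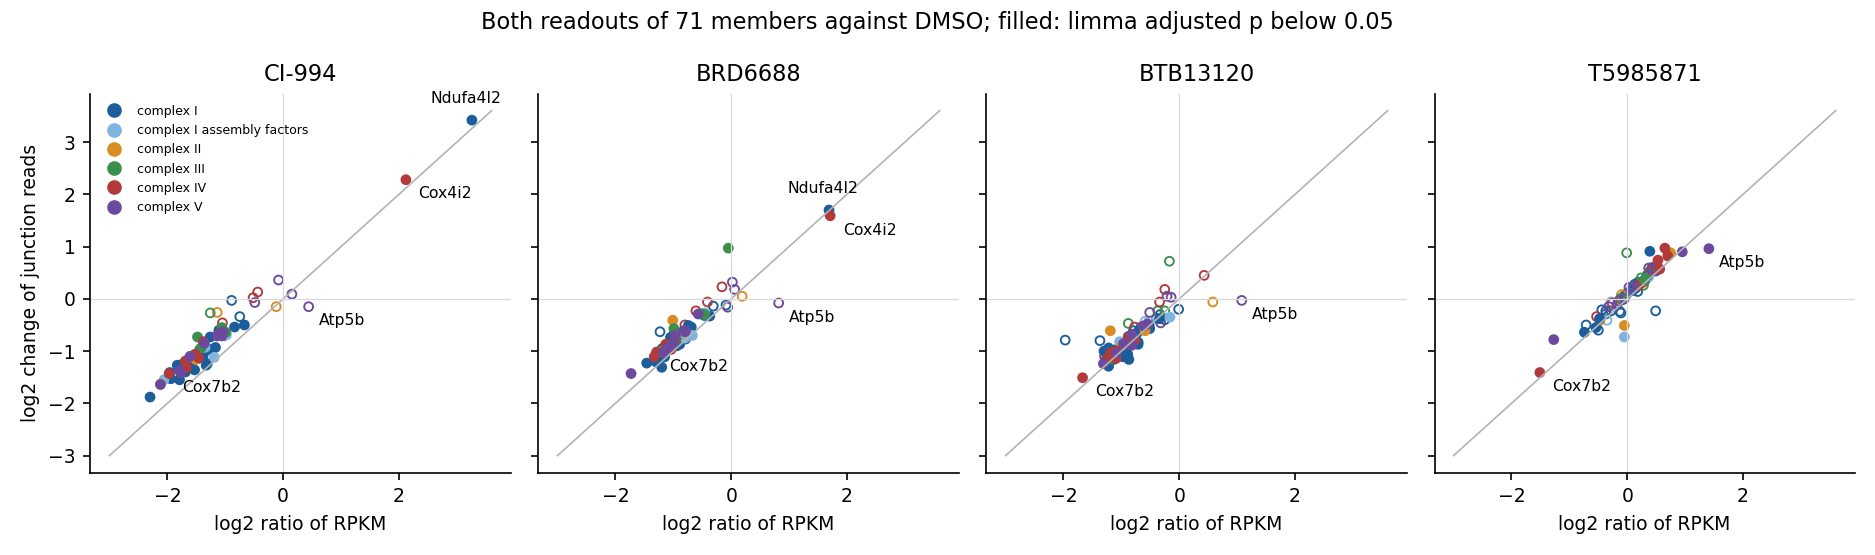
Log2 change of junction RPM (vertical axis) against log2 ratio of RPKM (horizontal axis), both over DMSO, for 71 members in 4 compounds; filled points had a limma adjusted p below 0.05 and the grey line marks equal values. Most points run along the direction of the line, above it with CI-994, and Atp5b lies to the right of it with RPKM ratios of 0.44, 0.82, 1.08 and 1.41.

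BRD4884 and BRD6688 were given at the same dose of 10 uM. The study lists both as inhibitors of HDAC1, 2 and 3 with kinetic selectivity for HDAC2. This 1 pair was compared directly, after the values had been seen. In junction reads 50 of 71 members were lower with BRD6688 than with BRD4884 and 0 higher, with a median log2 difference of -0.64, where 18.2% of all genes tested were lower and 8.52% higher; at an unadjusted p below 0.05 limma had 57 members lower and 1 higher. The largest differences were in Ndufa1, an essential accessory subunit of complex I (-1.33 ± 0.27, limma adjusted p = 0.0141), and Atp5e (-1.28 ± 0.33, adjusted p = 0.0243). Without 1 library of either compound 0 or 1 member passed, and without 1 DMSO library 35 to 38 did, and 15 without the filter on low genes.

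For some members the pair was not told apart. Ndufs7 differed by -0.41 ± 0.18 (limma adjusted p = 0.11), Ndufa4l2 by -0.63 ± 0.24 (adjusted p = 0.0718), Atp5b by -0.07 ± 0.12 (adjusted p = 0.706) and Sdha by 0.10 ± 0.08 (adjusted p = 0.317). Cox4i2, raised by both, was lower with BRD6688 (-0.64 ± 0.20, limma adjusted p = 0.043).

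Other gene groups, of the mitochondrion, the cytosolic ribosome and glycolysis, gave a setting for these values, all as medians of log2 RPKM ratio. The cytosolic ribosome group was taken by name (Rpl or Rps, then a digit) and not checked gene by gene. It need not hold ribosomal proteins only, nor all of them. With CI-994 the 77 genes of the mitochondrial ribosome had -1.27 (73 lower by more than 1.5-fold), the 93 named for the cytosolic ribosome -1.20 (83 lower), 38 other assembly factors and electron carriers -0.95 (31 lower), 17 genes of the TCA cycle -0.81 (12 lower) and 17 of glycolysis -0.33 (6 lower). With BRD6688 the same groups had -0.85, -1.03, -0.60, -0.39 and -0.17, and with BTB13120 -0.52, -0.85, -0.51, -0.28 and -0.16. The members, at -1.38, -0.95 and -0.82, were thus near the genes named for the cytosolic ribosome in the 3 conditions. With T5985871 the genes named for the cytosolic ribosome had 0.24 and those of the mitochondrial ribosome -0.10.

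The regulators of respiratory genes did not share 1 pattern. Over 15 of them the median log2 RPKM ratio was -0.53 with CI-994, -0.30 with BRD6688 and 0.02 with BTB13120. With CI-994 Nrf1, a transcription factor of respiratory genes, went from 42.29 to 13.38 RPKM (-1.62), the coactivator Pprc1 from 72.05 to 32.14 (-1.15), Gabpa, the DNA-binding part of the ETS factor GABP, from 51.95 to 36.58 (-0.50), and Tfam, which packs and transcribes mitochondrial DNA, from 88.18 to 60.12 (-0.55). With BTB13120, where 64 members were lower, Nrf1 was at 43.02 RPKM (0.02), Pprc1 at 77.39 (0.10), Gabpa at 68.45 (0.39) and Tfam at 83.83 (-0.07). These are single merged values.

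The ratios also differed by transcript length, not in the same order in every condition. With CI-994 the 31 members of up to 700 nt had a median log2 RPKM ratio of -1.56, the 35 above 700 and up to 1500 nt -1.39 and the 18 above 1500 and up to 3000 nt -1.04, while the 5 over 3000 nt had -1.14. Other genes above 50 RPKM had -1.30, -1.17, -0.87 and -0.57 in these 4 bands. With BTB13120 the members had -1.07, -0.81, -0.45 and -0.61 and the other genes above 50 RPKM -0.85, -0.59, -0.25 and -0.03. With Vorinostat the order was turned, at -0.57, -0.66, -0.68 and -0.94 for members, and so it was with T5985871 in the first 3 bands, at 0.15, 0.13 and -0.12. Over the first 3 bands the member median differed from that of the other genes above 50 RPKM by -0.26, -0.22 and -0.16 with CI-994, by -0.22, -0.22 and -0.19 with BTB13120, by -0.09, -0.17 and -0.12 with BRD6688 and by 0.16, 0.06 and -0.02 with Vorinostat. These differences are smaller than those from all genes, and the 5 longest members differed by -0.57, -0.58, -0.76 and -0.39. The part of transcript length and abundance in the ratios was not tested.

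**Figure D5:**
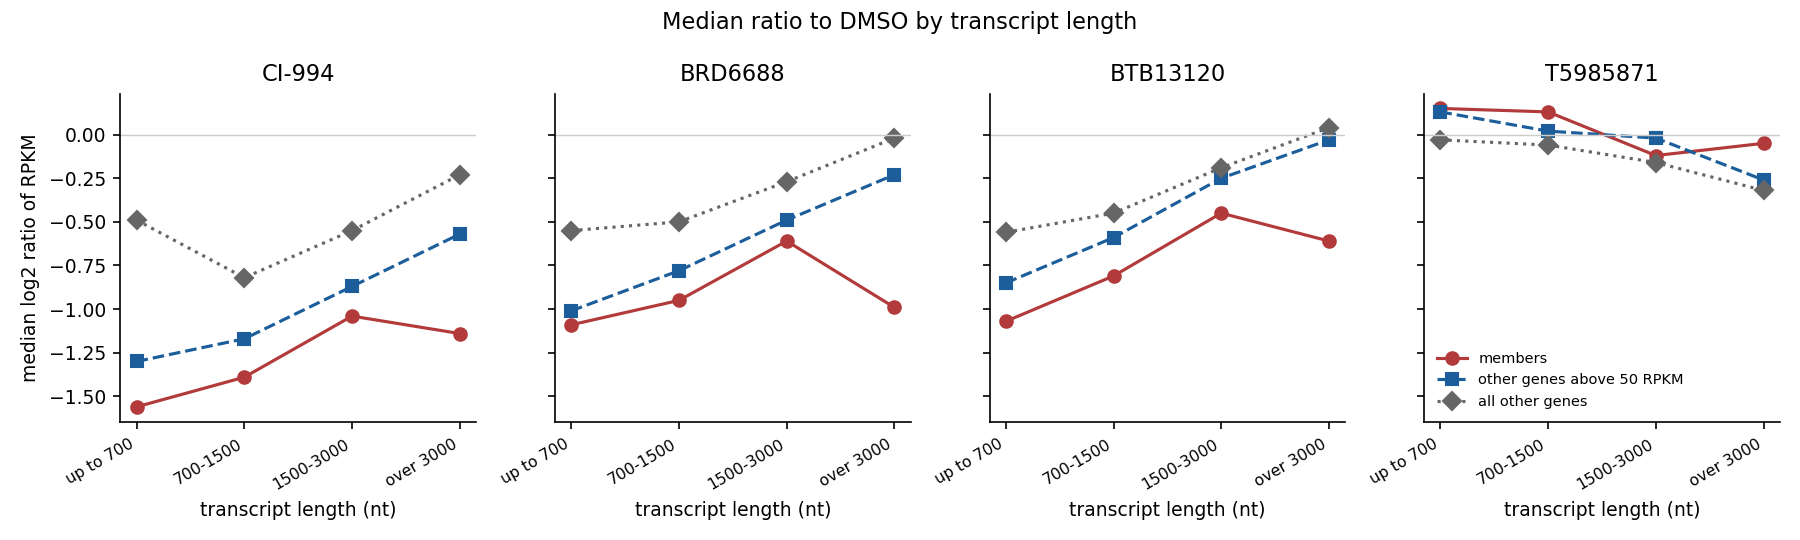
Median log2 ratio of RPKM over DMSO (vertical axis) in 4 bands of transcript length (nt) for the members (circles), other genes above 50 RPKM in DMSO (squares) and all other genes (diamonds). In CI-994 members go from -1.56 in the shortest band to -1.04 at 1500 to 3000 nt, and the last band holds 5 members.

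Splicing of the members, measured per library as percent spliced in (PSI) or percent intron retained (PIR), was seldom called changed. A change was called where the mean of a condition lay 10 points or more from the DMSO mean and each of its libraries lay outside the range of the DMSO libraries. Over all compounds 9 of 6433 measurements of member introns were called (0.14%, beside 0.784% in all genes), 7 of 3871 of exons (0.181%, beside 1.56%) and 126 of 10590 of alternative splice sites (1.19%, beside 2.03%). The calls came from 34 of 1059 events, in 17 genes. Members are among the more abundant mRNAs, and the shares in all genes were not matched for read coverage. Each site of a splice site choice counts as an event, so that 1 shift can give calls in both directions.

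The events called most often were choices of splice site in noisy measurements. An alternative 5′ site of Cox7a2l was called lower in 15 compounds, with 20.8 and 22.2 PSI in 2 DMSO libraries and 25 to 99 reads a library, but the BRD6688 libraries were at 6.2 and 42.9. A 3′ site of Atp5h, a stalk subunit of the ATP synthase, was called higher in 12 compounds, with DMSO at 86.9, 89 and 61.2 PSI. A 3′ site of Ndufa12, an accessory subunit of complex I, was called in 10, with DMSO at 75.4, 68.3 and 53.2 PSI. In each of the 3, replicate libraries of a condition lay more than 10 points apart.

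Both an exon of Ndufv3 and an exon of Ndufs7, with more reads and named after their values were seen, had closer replicates. A 1092 nt exon of Ndufv3, a flavoprotein-fraction subunit of complex I (mm9 chr17:31664255-31665346), was at 3.9, 4.5 and 3.7 PSI in DMSO and at 19.7 and 21.6 with CI-994. It was at 6.3 and 13.4 with Vorinostat, 11.4 and 7.8 with BRD6688, 8.1 and 7.7 with BRD4884 and 12.2 with T5985871, on 406 to 1331 reads a library. All of these lay above DMSO, and only CI-994 passed the limit of 10 points. Lying above DMSO was not particular to these compounds. Most of the other single libraries did so too, among them MK-1775 at 11.6 and AW00693 at 9.1. Those below DMSO were BTB12021 (2.7), RDR00572 (2.8), S02045 (2.9) and the ChemBridge compound (3.2). A 79 nt exon of Ndufs7 was at 91.1, 89.3 and 92.1 PSI in DMSO and was called lower with A-443654.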

How the data were processed

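Polyadenylated RNA of DMSO- or compound-treated N2A cells was sequenced from libraries of an unstranded kit, in 34 libraries as described. For the RPKM values the authors ran Salmon on GENCODE vM21 transcripts of GRCm38 and deposited gene sums merged over the replicates of a condition; the submitters' processing notes name version 0.10.2, the methods of the study another. The deposited percent values (PSI of exons and alternative splice sites, PIR of introns) were made by the authors with vast-tools on mm9, with a string of junction reads per event and library. The deposited log2 fold changes, p-values and FDR of the authors' edgeR test, and a table of splicing calls, were not used.

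Members and lists were chosen with earlier results of these data known. Ratios were log2((compound RPKM + 0.5)/(DMSO RPKM + 0.5)), with 1.5-fold as the limit, over 11957 genes above 1 RPKM in DMSO. Spliced junction reads of the introns of a gene were summed and divided by the library total to give RPM; log2 of this value plus 1 was fitted with limma 3.58.1 (R 4.3.3) over 34 libraries and 10448 genes with a mean of at least 1 RPM, with Benjamini-Hochberg adjustment at 0.05. The residual spread came from 3 DMSO libraries and 4 pairs of HDAC inhibitor libraries. The fit was tested on simulated data. These reads depend on the number of introns and were not compared between genes.

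PSI and PIR needed the coverage and balance filters of the study (introns at least 15 reads) and at least 2 DMSO libraries; a call needed at least 10 points between the mean of a condition's libraries and the DMSO mean, with each library (both for an HDAC inhibitor) outside the DMSO range. Transcript length was that of the principal GENCODE transcript, found for all 89 members. All value columns had a condition (0 without).

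Compounds were described singly if they were HDAC inhibitors or if the median of the members differed from that of all genes by at least 0.15. Named genes were the lowest and highest member of each complex over the 27 compounds, the 3 largest falls and rises in each such compound, the isoform sets, and the events called most often. Alternatives were other folds, pseudocounts, filters and centring, an intensity trend in limma, a replicate block, and leaving out each library in turn. Python 3.11.15, pandas 2.3.3, numpy 2.4.6 and matplotlib 3.10.9 were used.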

Additional observations from a re-analysis of the deposited data

Results flagged for a closer look

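BRD4884 and BRD6688, given at the same dose, differed in these genes. By a limma test of the difference itself, adjusted over 10448 genes, 50 of 71 members were lower with BRD6688 and 0 higher. Of all genes tested, 18.2% were lower and 8.52% higher. The gap was not particular to the members. Median log2 RPKM ratios with BRD4884 and BRD6688 were -0.38 and -0.95 for members. They were -0.39 and -1.03 for genes named for the cytosolic ribosome, and -0.36 and -1.01 for other genes above 50 RPKM of up to 700 nt. The comparison was chosen after the values had been seen. It rests on 2 libraries a side, and 0 or 1 member passed without any of these 4 libraries.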

How the results depend on the processing

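Of 173 alternatives to 20 counts of called members or events, 127 stayed within 1.5 times. These alternatives were counted for members or their events only, and the shares of all genes at these settings were not taken. Among 39 named gene and compound pairs, 360 of 375 alternatives kept direction and side of the threshold, 13 lost the call (7 for Ndufa5 and 6 for Sdhd, both with BRD4884), 2 gained it and 0 reversed. At 2-fold, the members past the limit in RPKM were 24 with Vorinostat, 3 with BRD4884, 40 with BRD6688, 2 with A-443654, 31 with BTB13120, 1 with SEW06315 and 5 with T5985871, and at a lower log2 limit of 0.32 60 with BRD4884, 37 with A-443654, 46 with SEW06315 and 40 with T5985871. Centred on the median of all genes, they were 29 with Vorinostat (21 lower, 8 higher), 6 with BRD4884 (2 lower, 4 higher), 8 with SEW06315 and 25 with T5985871 (3 lower, 22 higher). In junction reads, centring on the library median gave 27 with BRD4884 (23 lower, 4 higher) and 31 with T5985871 (4 lower, 27 higher); a pseudocount of 0.25 gave 1 with A-443654; and no filter on low genes gave 1 with A-443654, 18 with BTB13120 and 15 for BRD6688 against BRD4884, with the cause not tested. An intensity trend gave 5 with SEW06315 and 26 with T5985871 (10 lower, 16 higher). Introns, exons and alternative sites called at a limit of 15 points were 5, 3 and 52, and by size alone introns were 14 and exons 13.

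Leaving out 1 library at a time gave 32 to 59 members with Vorinostat (59 without its library A), 7 to 12 with BRD4884, 41 to 58 with BRD6688, 55 to 59 with CI-994, 0 with A-443654 (without any 1 of the DMSO libraries), 23 to 32 with BTB13120 (32, 24 and 23 without DMSO A, B and C), 2 with SEW06315, 14 to 16 with T5985871, and 0 to 38 for BRD6688 against BRD4884. Called introns were 9 to 16, exons 6 to 8 and alternative sites 67 to 124. A lone library left in a group was assumed to vary like the other groups.

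The replicate letters do not pair the samples: deviations of libraries with the same letter correlated between -0.251 and 0.104. A replicate block gave 32 members with Vorinostat, 7 with BRD4884 (3 lower, 4 higher), 51 with BRD6688, 55 with CI-994 and 22 for BRD6688 against BRD4884.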
